A study of Homo sapiens with 4 samples.

Results

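The 46 genes described here build or police the machinery that separates chromosomes. They are 14 centrosome and centriole genes, 11 kinetochore genes, 7 checkpoint genes, 9 mitotic kinases and other cell cycle regulators, and 5 spindle genes. Their skipped exons were chosen by position: the middle exon of an event had to lie inside one of the genes on the same strand, with exons and genes in hg38 and GENCODE release 29. This gave 193 events at 168 exons, of 37641 skipped exons listed for either cell line, and 40 of the 46 genes had at least 1.

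RNA was sequenced from MDA-LM2, a derivative of the human triple-negative breast cancer line MDA-MB-231 that was selected for colonising the lung, and from the parental MDA-MB-231 line. Both were grown untreated in the same supplemented medium, so the comparison is between cultured populations. There were 2 samples per line, but each line's quantities came as 1 table, taken here as pooled, so no value carries an error between samples and no test of the lines was possible. The tables held 17366605 reads that fit a listed event in MDA-LM2 and 21716937 in parental cells. Reads that fit neither isoform made up 74.7% of listed reads in MDA-LM2 and 75.7% in parental cells. Markers of the line itself were read in both libraries, with 2203 RPM (event reads per 1000000 reads that fit a listed event) for CD44 in MDA-LM2 and 2511 in parental cells. AXL had 166 and 180 RPM and KRT8 had 356 and 271 RPM, while VIM, CAV1 and KRT18 had no measured event. The luminal marker CDH1 had 11 reads in MDA-LM2 and 13 in parental cells, GATA3 had 13 and 57, and no measured event was found for ESR1, EPCAM, or the leukocyte, endothelial and fibroblast markers.

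Centrosomes organise the spindle and are built on centrioles, whose older member carries appendages that anchor microtubules and, in resting cells, the cilium. Kinetochores join chromosomes to spindle microtubules, and the spindle checkpoint holds the anaphase promoting complex until every kinetochore is attached. The Aurora and Polo-like kinases and the CDC25 phosphatases time these steps. Many of the proteins involved are long coiled-coil scaffolds, in which an exon that keeps the reading frame adds or removes a stretch of the rod or of a binding region.

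The sequences of the exons that differed most show what is gained or lost. They are from GENCODE release 29 transcripts in hg38, 5′ to 3′ on the strand of the gene. The skipped exon is in capitals and the adjoining 20 nt of each neighbouring exon in lower case. For CHFR the 216-nt version of the exon is shown. It contains the 180-nt version, which differed more and begins at ATACCTCAGG. The long exon of NIN lies at chr14:50756492-50758630 on the minus strand, and its first and last 60 nt and the junction made by skipping it are shown.
NIN exon start: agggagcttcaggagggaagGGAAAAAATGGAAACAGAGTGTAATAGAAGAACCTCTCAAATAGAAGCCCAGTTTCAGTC
NIN exon end: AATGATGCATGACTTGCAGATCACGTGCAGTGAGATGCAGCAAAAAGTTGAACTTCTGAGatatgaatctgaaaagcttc
NIN skipping junction: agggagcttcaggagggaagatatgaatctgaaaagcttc
CEP57 78-nt, chr11:95822499-95822576, plus strand: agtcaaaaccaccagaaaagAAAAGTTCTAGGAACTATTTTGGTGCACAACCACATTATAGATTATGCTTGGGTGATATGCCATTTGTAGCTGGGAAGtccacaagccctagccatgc
CHFR 216-nt, chr12:132869619-132869834, minus strand: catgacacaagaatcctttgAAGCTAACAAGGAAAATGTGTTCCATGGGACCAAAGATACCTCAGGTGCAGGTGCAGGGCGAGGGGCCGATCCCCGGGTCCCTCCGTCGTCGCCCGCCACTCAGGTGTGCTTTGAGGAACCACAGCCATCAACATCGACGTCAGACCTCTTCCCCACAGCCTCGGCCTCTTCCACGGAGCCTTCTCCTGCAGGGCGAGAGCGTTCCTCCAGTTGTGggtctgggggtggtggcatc
DBF4B 88-nt, chr17:44732178-44732265, plus strand: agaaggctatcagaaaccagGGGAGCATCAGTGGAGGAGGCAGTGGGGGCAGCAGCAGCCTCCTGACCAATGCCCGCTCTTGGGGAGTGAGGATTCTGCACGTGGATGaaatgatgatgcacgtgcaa
SKA3 62-nt, chr13:21172620-21172681, minus strand: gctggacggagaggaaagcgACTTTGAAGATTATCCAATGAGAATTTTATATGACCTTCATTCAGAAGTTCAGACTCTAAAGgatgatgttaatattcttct
The NIN exon holds 713 codons with 0 in-frame stop codons, and the CEP57 and CHFR exons also have lengths divisible by 3. The DBF4B and SKA3 exons do not, so skipping either shifts the frame of the coding sequence.

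An exon was compared where each library had at least 10 reads that fit only inclusion or only exclusion, with at least 1 of each kind over both libraries. This left 126 of the 168 exons, in 38 genes. The call asked that the authors' deposited table give both a Bayes factor of 10 or more and inclusion levels 0.2 or more apart. The inclusion level is the fraction of transcripts estimated to carry the exon. By this rule 7 exons in 5 genes were higher and 1 exon was lower in MDA-LM2. Over all 14109 exons compared, 0.921% were called higher and 0.326% lower, or 1.25% in either direction, against 6.35% of the members. The genes were listed with the NIN, CHFR and SKA3 differences already known, so this share is a description of the list. The higher exons were in NIN, CEP57, CEP83 (2 exons), CHFR (2 exons) and DBF4B, and the lower one in SKA3. The levels in the libraries were within 0.05 of each other in 85 of the 126 exons, or 67.5%, against 70.8% of all exons compared. The median difference was 0.01 over the members, with quartiles of -0.02 and 0.05, and 0 over all exons.

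**Figure D1:**
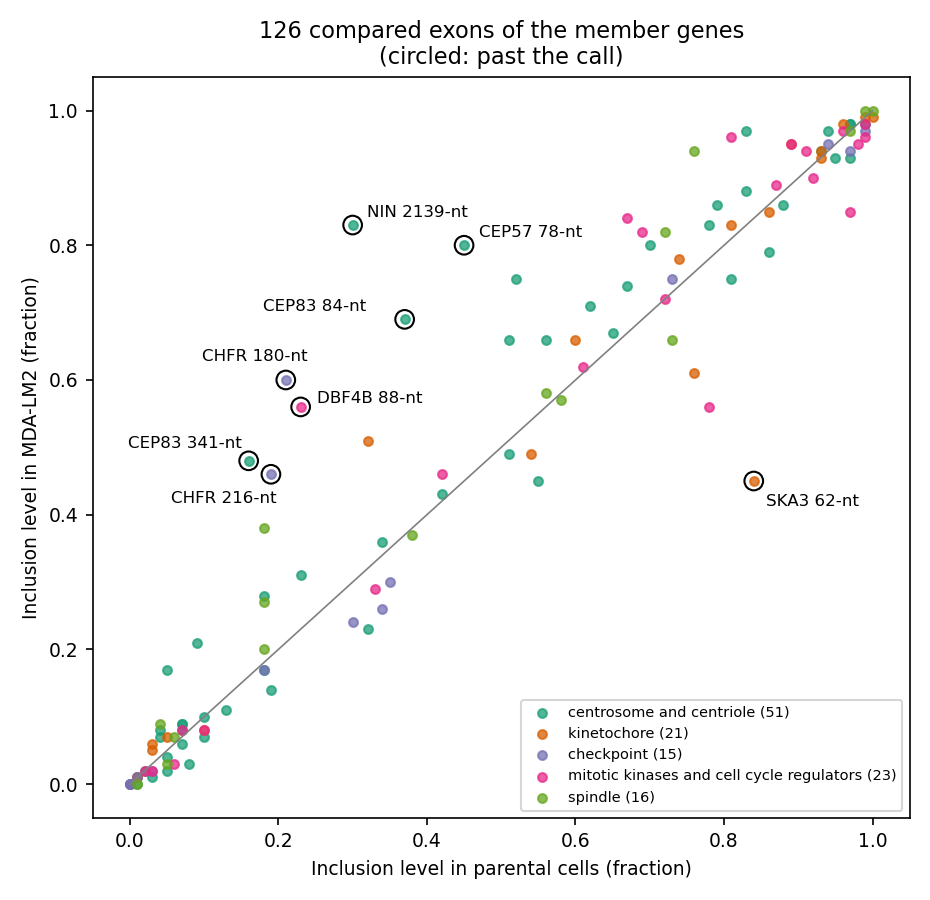
Inclusion level of each of the 126 compared exons in MDA-LM2 (vertical axis, fraction) against parental cells (horizontal axis, fraction), coloured by role, with equality as a line. The 8 circled exons are past the call, 7 above the line and 1, in SKA3, below it.

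Read counts were also compared directly. Inclusion and exclusion counts went into a two-sided Fisher's exact test, adjusted by Benjamini-Hochberg over all 14109 exons. Its p-values hold for the pooled libraries, not for the lines. It passed 0.05 for 4 member exons, all higher in MDA-LM2, in NIN, CEP83 (2 exons) and DBF4B. Over all exons 0.581% passed in that direction and 0.517% in the other. The test leaves out the reads common to both isoforms, which the deposited levels also use.

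Among centrosome and centriole genes, 51 exons of 13 genes were compared and 4 were higher in MDA-LM2. The largest difference was in NIN, which encodes ninein, a scaffold of the subdistal appendages that anchors microtubules at the mother centriole. The 2139-nt exon had 4508 inclusion, 10 exclusion and 1324 common reads in MDA-LM2, against 2286, 62 and 1848 in parental cells. Its level was 0.83 (deposited interval 0.79 to 0.88) in MDA-LM2 and 0.30 (0.29 to 0.32) in parental cells, so the intervals lay well apart. In the authors' deposited table the difference was 0.53, the largest of the members, and the Bayes factor was at the cap of that table. The adjusted p of Fisher's exact test of the pooled libraries was 2.6e-16. MDA-LM2 had 3.4 inclusion reads for each common read and parental cells 1.24, so inclusion reads were higher against the flanking exons, and skipping reads were fewer. In GENCODE 7 transcripts of NIN carry the exon and 2 skip it with the same neighbours.

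Because inclusion reads can fall anywhere in a long exon and exclusion reads only across 1 junction, the raw counts give a high level in either line. Inclusion reads divided by 2, set against exclusion reads, gave 0.996 in MDA-LM2 and 0.949 in parental cells. Divided instead by the number of positions each class can occupy, for an assumed read length of 50 nt, the levels were 0.910 in MDA-LM2 and 0.452 in parental cells. The direction was the same by all of these measures. The other 2 listed NIN exons, of 54 and 61 nt, lacked inclusion reads in both libraries and were not compared, with levels of 0.03 and 0.01 in MDA-LM2 and the same in parental cells.

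CEP83 encodes a distal appendage protein that docks the centriole to the membrane when a cilium forms. It had 2 called exons, of 84 and 341 nt, on chromosome 12 at 94402251 to 94402334 and 94402551 to 94402891. Neither matches an exon of GENCODE release 29, and their sequence is therefore not shown. They sit in the same intron, between the same neighbours, and share their exclusion reads, 5 in MDA-LM2 and 48 in parental cells, so they are not independent observations. The 84-nt exon was at 0.69 (0.53 to 0.85) in MDA-LM2 and 0.37 (0.28 to 0.47) in parental cells, on 34 and 57 inclusion reads. The 341-nt exon was at 0.48 (0.32 to 0.65) in MDA-LM2 and 0.16 (0.11 to 0.21) in parental cells, on 49 and 51 inclusion reads. Their Bayes factors in the authors' deposited table were 95.06 and 27558.86, and the adjusted p-values of Fisher's exact test were 0.023 and 1.3e-04. What separated the libraries was mainly the skipping junction, at 0.288 exclusion RPM in MDA-LM2 and 2.21 in parental cells. The remaining 3 compared CEP83 exons, of 53, 104 and 112 nt, were not called, with the 112-nt exon at 0.66 in MDA-LM2 and 0.56 in parental cells.

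CEP57, which organises pericentriolar material around the centriole and binds microtubules, had a 78-nt coding exon at 0.80 (0.60 to 0.97) in MDA-LM2 and 0.45 (0.33 to 0.58) in parental cells. It had 53 inclusion, 0 exclusion and 228 common reads in MDA-LM2, against 54, 2 and 409 in parental cells. The 0 exclusion reads allow a share of up to 5.66% of informative reads in MDA-LM2, counting error only, so a difference in exclusion was not detectable at this depth. Its Bayes factor, by the authors' deposited table, was 11.4, just past the limit of 10, and the adjusted p of Fisher's exact test was 1. The difference rests on the inclusion reads for each common read, 0.23 in MDA-LM2 and 0.13 in parental cells.

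None of the other centrosome exons was called. The largest difference among them was in a 56-nt exon of CEP70, a centrosomal protein that binds gamma-tubulin, at 0.75 (0.51 to 0.93) in MDA-LM2 and 0.52 (0.32 to 0.73) in parental cells, on 22 and 18 informative reads. Its intervals overlapped, and its Bayes factor, by the authors' deposited table, was 1.24, below the limit of 10. It shares its exclusion reads, 2 in MDA-LM2 and 3 in parental cells, with versions of 74 and 126 nt. The 74-nt version was at 0.86 in MDA-LM2 and 0.88 in parental cells, and the 126-nt version at 0.83 and 0.78. The best read variable exon of PCM1, the scaffold of centriolar satellites, has 165 nt and was at 0.88 (0.79 to 0.95) in MDA-LM2 and 0.83 (0.76 to 0.89) in parental cells. A 186-nt version of it, with the same exclusion reads, was at 0.67 in MDA-LM2 and 0.65 in parental cells. OFD1, which caps the distal end of the centriole, had a 120-nt exon with 61 inclusion and 0 exclusion reads in MDA-LM2, against 175 and 15 in parental cells. Its level was 0.97 in MDA-LM2 and 0.83 in parental cells and the exon was not called, since the authors' deposited table gives a Bayes factor of 3.79. This exon was chosen after its values were seen. CEP152, CEP63, CEP164, CEP192, CEP290, CEP350 and CNTRL had 25 compared exons with differences from -0.1 to 0.15. Of these genes, CEP152 encodes a protein that recruits PLK4 to the centriole and CEP192 one that recruits pericentriolar material. CEP164 encodes a distal appendage protein and CEP290 a gatekeeper of the cilium. PLK4, the kinase that starts centriole duplication, had 3 listed exons that were not compared, since neither library had an exclusion read for any of them. They had 35 to 89 inclusion reads in MDA-LM2 and 63 to 145 in parental cells.

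**Figure D2:**
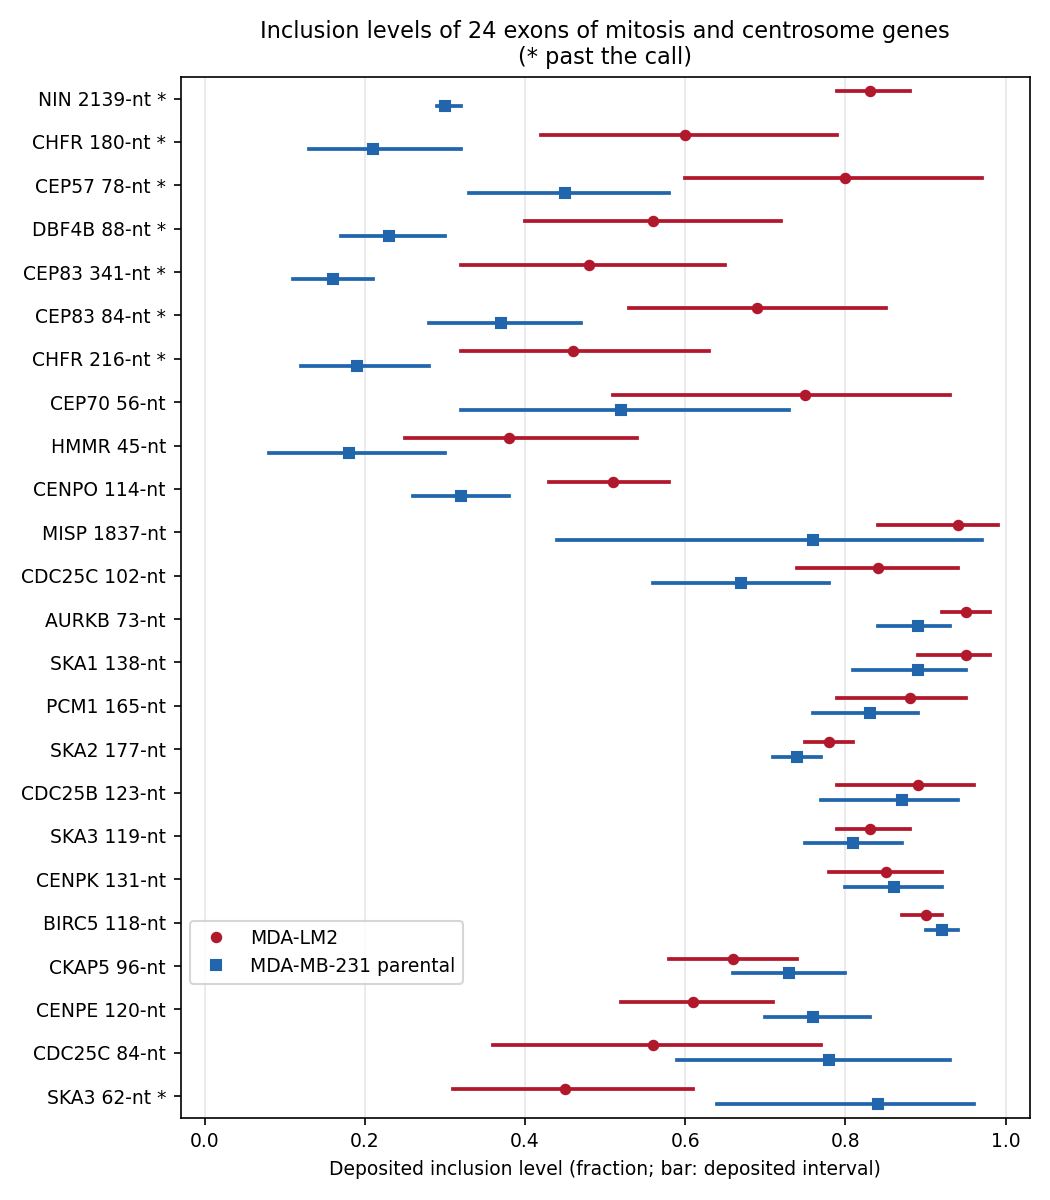
Deposited inclusion level (horizontal axis, fraction) with its deposited interval as a bar for 24 exons, ordered by the difference, MDA-LM2 above parental cells in each pair and the called exons marked by an asterisk. The intervals of the 8 called exons do not overlap, from NIN at 0.83 and 0.30 to SKA3 at 0.45 and 0.84.

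Among kinetochore genes, 21 exons of 9 genes were compared, none was called higher and 1 was called lower. The lower one was a 62-nt coding exon of SKA3, a subunit of the SKA complex that keeps kinetochores on shortening microtubules. It had 24 inclusion, 4 exclusion and 232 common reads in MDA-LM2, against 45, 1 and 229 in parental cells. Its level was 0.45 (0.31 to 0.61) in MDA-LM2 and 0.84 (0.64 to 0.96) in parental cells. The authors' deposited table gives a difference of -0.39 and a Bayes factor of 27.61, and Fisher's exact test of the few informative reads gave an adjusted p of 0.73. GENCODE has 4 transcripts with the exon and 1 that skips it. The other compared exon of SKA3, of 119 nt, had many more reads and was at 0.83 (0.79 to 0.88) in MDA-LM2 and 0.81 (0.75 to 0.87) in parental cells, so the difference was not shared along the gene.

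No exon of SKA1 or SKA2, the partners of SKA3 in the complex, was called. SKA2 has a 177-nt exon with 884 inclusion and 138 exclusion reads in MDA-LM2, against 1154 and 187 in parental cells. Its level was 0.78 (0.75 to 0.81) in MDA-LM2 and 0.74 (0.71 to 0.77) in parental cells. A 197-nt version, which shares these exclusion reads, was at 0.66 in MDA-LM2 and 0.60 in parental cells. An 87-nt exon of SKA2 was at 0.94 (0.91 to 0.97) in MDA-LM2 and 0.93 (0.90 to 0.96) in parental cells in its event with most informative reads. In another event of that exon, with other neighbours, the level was 0.74 (0.64 to 0.85) in MDA-LM2 and 0.56 (0.49 to 0.63) in parental cells. Those intervals do not overlap, and the authors' deposited table gives a difference of 0.18 and a Bayes factor of 5.1, below the limit. SKA1 has a 138-nt exon at 0.95 (0.89 to 0.98) in MDA-LM2 and 0.89 (0.81 to 0.95) in parental cells. CENPE, the kinesin that carries chromosomes to the spindle equator, had a 120-nt exon with 180 inclusion and 12 exclusion reads in MDA-LM2, against 395 and 17 in parental cells. Its level was 0.61 (0.52 to 0.71) in MDA-LM2 and 0.76 (0.70 to 0.83) in parental cells, and it was not called, since the authors' deposited table gives a Bayes factor of 3.89.

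CENPO, part of the inner kinetochore network on centromeric chromatin, came closest to a call. Its 114-nt exon was at 0.51 (0.43 to 0.58) in MDA-LM2 and 0.32 (0.26 to 0.38) in parental cells, and the authors' deposited table gives a difference of 0.19 and a Bayes factor of 69.45. A second event of the same exon, with other neighbouring exons, was at 0.49 in MDA-LM2 and 0.28 in parental cells and would pass. The reads do not move one way: inclusion reads were 142 in MDA-LM2 and 87 in parental cells, and exclusion reads were also more numerous, 38 against 17. From these reads alone the level was lower in MDA-LM2, 0.651 against 0.719. CENPK, of the same network, had a 131-nt exon of a noncoding transcript at 0.85 (0.78 to 0.92) in MDA-LM2 and 0.86 (0.80 to 0.92) in parental cells. A 99-nt coding version, with the same exclusion reads and more inclusion reads, was at 0.93 in both libraries. KNL1, the scaffold that recruits the BUB proteins, and NDC80 and NUF2, of the complex that grips the microtubule, had 5 compared exons that differed by at most 0.02.

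Among checkpoint genes, 15 exons of 5 genes were compared, 2 were higher and none was lower. Both higher exons are versions of 1 exon of CHFR, a ubiquitin ligase that delays entry into mitosis when microtubules are disturbed. The versions, of 180 and 216 nt, end at the same base and differ in their upstream splice site, and they share their exclusion and common reads. The 180-nt version had 58 inclusion, 2 exclusion and 75 common reads in MDA-LM2, against 24, 0 and 102 in parental cells. Its level was 0.60 (0.42 to 0.79) in MDA-LM2 and 0.21 (0.13 to 0.32) in parental cells. The 216-nt version was at 0.46 (0.32 to 0.63) in MDA-LM2 and 0.19 (0.12 to 0.28) in parental cells, on 51 and 26 inclusion reads. Bayes factors in the authors' deposited table were 58.72 and 18.52, while Fisher's exact test gave an adjusted p of 1 for each. Inclusion reads for each common read of the 180-nt version were 0.773 in MDA-LM2 and 0.235 in parental cells. Exclusion reads point the other way, since parental cells had none. From inclusion and exclusion reads alone the level of the 180-nt version was 0.935 in MDA-LM2 and 1.0 in parental cells. With 24 informative reads in parental cells, 0 exclusion reads still allow a share of up to 12.5%, so the direction of CHFR depends on the common reads.

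The other checkpoint exons were close, with differences from -0.08 to 0.02. They belong to BUB1 and BUB1B, which act in the spindle checkpoint, to MAD1L1 and MAD2L1, which form the core of its signal, and to CHFR itself. Among them a 121-nt exon of MAD2L1 was at 0.97 in MDA-LM2 and 0.99 in parental cells, with 7 exclusion reads in MDA-LM2 and 1 in parental cells. Exons in the 5′ UTR of BUB1, of 47 and 91 nt, were skipped in nearly all reads, with 934 exclusion reads in MDA-LM2 and 901 in parental cells. No event was analysed here for BUB3 or for CDC20, the activator that the checkpoint restrains.

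Among mitotic kinases and other regulators, 23 exons of 6 genes were compared, 1 was higher and none was lower. DBF4B encodes a regulatory partner of the CDC7 kinase, which fires replication origins. Its 88-nt coding exon had 35 inclusion and 10 exclusion reads in MDA-LM2, against 47 and 57 in parental cells, with no common reads in either. Its level was 0.56 (0.40 to 0.72) in MDA-LM2 and 0.23 (0.17 to 0.30) in parental cells. Its Bayes factor, by the authors' deposited table, was 65.12 and the adjusted p of Fisher's exact test was 0.030. From reads alone the level was 0.636 in MDA-LM2 and 0.292 in parental cells. Without common reads both measures rest on the same reads, so their nearly equal difference is not separate evidence. Exclusion reads differed more than inclusion reads, at 0.576 RPM in MDA-LM2 against 2.63 in parental cells. The paralogue DBF4 had 2 listed exons, neither with enough reads.

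BIRC5, or survivin, is the subunit that places the chromosomal passenger complex, and its isoforms were well covered and near equal. The 118-nt exon that the delta-Ex3 form lacks had 672 inclusion and 50 exclusion reads in MDA-LM2, against 842 and 49 in parental cells. Its level was 0.90 (0.87 to 0.92) in MDA-LM2 and 0.92 (0.90 to 0.94) in parental cells. The 69-nt exon of the 2B form was at 0.08 (0.07 to 0.11) in MDA-LM2 and 0.10 (0.08 to 0.12) in parental cells. A 165-nt exon further downstream was at 0.08 (0.06 to 0.10) in MDA-LM2 and 0.07 (0.05 to 0.10) in parental cells. AURKB, the kinase of the same complex, had a 73-nt exon at 0.95 (0.92 to 0.98) in MDA-LM2 and 0.89 (0.84 to 0.93) in parental cells. It shares its exclusion reads, 10 in MDA-LM2 and 20 in parental cells, with a 49-nt version that was not called. The 49-nt version was at 0.82 (0.72 to 0.90) in MDA-LM2 and 0.69 (0.59 to 0.78) in parental cells. AURKA, which matures centrosomes, had 3 exons in its 5′ UTR that differed by at most 0.04.

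The CDC25 phosphatases switch on CDK1 at entry into mitosis. CDC25C had the largest decrease among exons not called, an 84-nt exon at 0.56 (0.36 to 0.77) in MDA-LM2 and 0.78 (0.59 to 0.93) in parental cells. It rests on 24 and 33 informative reads, its intervals overlap, and its Bayes factor, by the authors' deposited table, was 1.44. A 63-nt version shares its exclusion reads, 2 in MDA-LM2 and 0 in parental cells. That version was at 0.85 in MDA-LM2 and 0.97 in parental cells, on 49 and 69 inclusion reads. A neighbouring 102-nt exon of CDC25C was at 0.84 (0.74 to 0.94) in MDA-LM2 and 0.67 (0.56 to 0.78) in parental cells, and the authors' deposited table gives a Bayes factor of 2.22. CDC25B had a 123-nt exon at 0.89 (0.79 to 0.96) in MDA-LM2 and 0.87 (0.77 to 0.94) in parental cells. No event was analysed here for PLK1 or NEK2, kinases of mitotic entry and centrosome separation, nor for the kinetochore genes SPC24 and ZWINT.

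Among spindle genes, 16 exons of 5 genes were compared and none was called in either direction. HMMR, which links spindle microtubules to their poles, has an exon in versions of 45 and 48 nt that share exclusion reads, 7 in MDA-LM2 and 11 in parental cells. The 45-nt version was at 0.38 (0.25 to 0.54) in MDA-LM2 and 0.18 (0.08 to 0.30) in parental cells, on 22 and 10 inclusion reads, and the authors' deposited table gives a Bayes factor of 1.76. The 48-nt version was at 0.82 in MDA-LM2 and 0.72 in parental cells. CKAP5, a microtubule polymerase, had a 96-nt exon at 0.66 (0.58 to 0.74) in MDA-LM2 and 0.73 (0.66 to 0.80) in parental cells. It is a version of a 180-nt exon with which it shares its exclusion reads, 1 in each library. The 180-nt version was at 1.0 in both libraries, on 1770 inclusion reads in MDA-LM2 and 3001 in parental cells, so skipping was rare. NUMA1, which ties microtubule minus ends together at the poles, had 10 compared exons that differed by at most 0.09. Its long exon of 3366 nt, with 9560 inclusion reads in MDA-LM2 and 13339 in parental cells, was at 1.0 in MDA-LM2 and 0.99 in parental cells. A 108-nt exon of TPX2, a spindle assembly factor that activates AURKA, was at 0 in MDA-LM2 and 0.01 in parental cells.

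**Figure D3:**
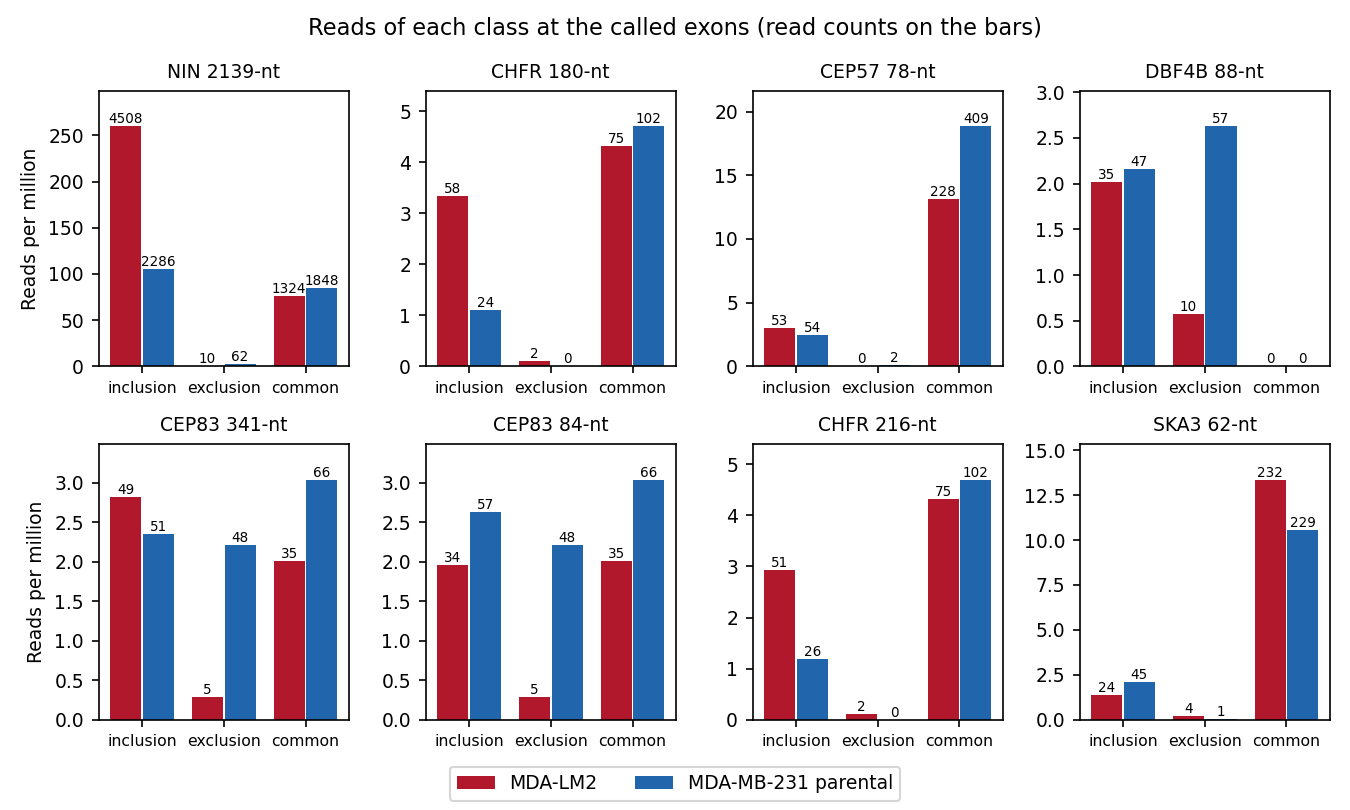
RPM of the inclusion, exclusion and common classes (vertical axes, separate scales) at the 8 called exons, MDA-LM2 left of parental cells, with the read counts on the bars. Exclusion reads are fewer in MDA-LM2 for NIN (10 against 62), DBF4B (10 against 57) and CEP83 (5 against 48), while for CHFR the inclusion reads differ.

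The 8 called exons thus rest on different reads. Inclusion reads for each common read moved in the direction of the call in 6 of the 6 higher exons with common reads and in the lower one. The level from inclusion and exclusion reads alone moved that way in 5 of the 7 higher exons, in 3 of them by at least 0.1, and in the lower one. The deposited levels are estimated from the same reads, so these counts are not separate evidence. The 2 CEP83 exons also share their common reads, as do the 2 CHFR versions. In 3 of the higher exons and in the lower one, fewer than 10 exclusion reads were counted in the libraries together. Of the 8 exons, 6 are coding and 5 have a length divisible by 3, with the 2 CHFR versions counted apart. Among all 126 member exons 50% are coding, against 49.2% of all exons compared. A length divisible by 3 was found in 48.4% of the member exons and 41.8% of all exons compared. The members also lie between shorter introns, with medians of 1414 nt upstream and 1973 nt downstream, against 2296 and 2221 nt over all exons.

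**Figure D4:**
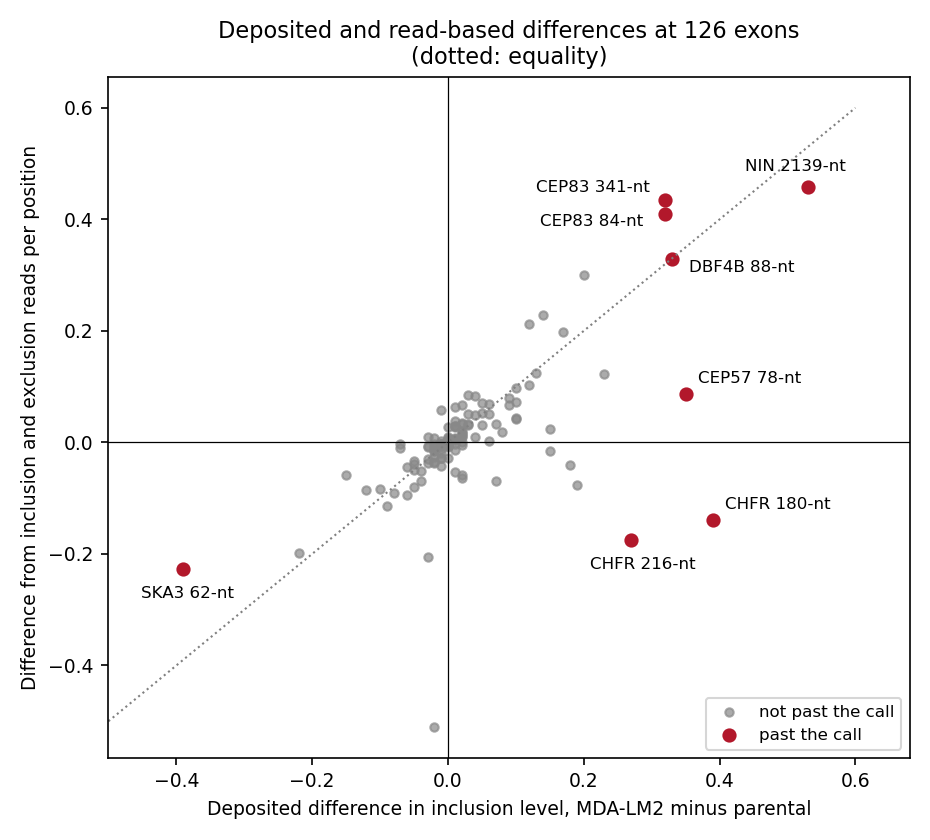
Difference in inclusion level, MDA-LM2 minus parental, from inclusion and exclusion reads per position at an assumed read length of 50 nt (vertical axis) against the deposited difference (horizontal axis) for 126 exons. At this read length NIN, DBF4B and the CEP83 exons lie near the dotted line of equality, CEP57 below it, and the CHFR exons below 0. SKA3 lies above the line, at -0.226 against a deposited -0.39. The NIN difference, 0.458 here, was 0.332 at an assumed 100 nt and 0.0470 with inclusion reads divided by 2. The lowest point is a 1686-nt exon of CEP164 with 2 exclusion reads in MDA-LM2 and 0 in parental cells.

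The reads of each gene's best covered event, of all 3 fitting classes and scaled to the library total, give a rough level per gene. They depend on the length and isoforms of that event and, in bulk RNA, fewer expressing cells and less RNA per cell cannot be told apart. Values existed for 39 members. At a ratio of at least 1.5 with an exact 95% interval that excludes 1, counting error only, 2 members were higher and 4 lower in MDA-LM2. Over all 8825 genes 8.65% were higher and 18.7% lower, and the median gene had a log2 ratio of -0.12, against -0.16 for the members.

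MISP stood far from the rest. It encodes a protein that joins actin to the spindle and positions it. Its event had 935 reads, or 53.8 RPM, in MDA-LM2 and 35 reads, or 1.61 RPM, in parental cells, a ratio of 33.4 (23.9 to 48.3). Nearly all were inclusion reads of its 1837-nt exon, 910 in MDA-LM2 and 34 in parental cells, and the level of that exon was 0.94 (0.84 to 0.99) in MDA-LM2 and 0.76 (0.44 to 0.97) in parental cells. With 34 informative reads in parental cells the 0 exclusion reads allow a share of up to 8.82%, so a difference in the use of the exon was not detectable at this depth.

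NIN was the other gene with more event reads in MDA-LM2, 336 RPM against 193 in parental cells, a ratio of 1.74 (1.67 to 1.81). These are mostly inclusion reads of the 2139-nt exon itself. Its common reads, from the flanking exons, were 76.2 RPM in MDA-LM2 and 85.1 in parental cells. Scaled instead to each library's total of common reads, their ratio was 0.923 (0.86 to 0.991), so the flanking exons give no rise of the gene.

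Of the lower members, OFD1 differed most, with 316 event reads in MDA-LM2 and 900 in parental cells, a ratio of 0.439 (0.385 to 0.50). CEP192 had 370 reads in MDA-LM2 and 745 in parental cells, a ratio of 0.621 (0.547 to 0.704). DBF4B had 164 and 332 reads, a ratio of 0.618 (0.509 to 0.747), and CNTRL, a protein of the mother centriole and midbody, had 67 and 126, a ratio of 0.665 (0.487 to 0.901). At a ratio of 2, which 3.35% of all genes passed upward and 8.92% downward, MISP was higher and OFD1 lower. Relative to the median gene, where 14.1% of all genes were lower by the 1.5-fold rule and 11.9% higher, OFD1 alone of the members was lower, and MAD1L1 was higher beside MISP and NIN. The 3 other lower genes are therefore below 1.5-fold once the shift of all genes is taken out. MAD1L1 had 40.2 RPM in MDA-LM2 and 28.2 in parental cells, a ratio of 1.43 (1.28 to 1.59). By role, the median log2 ratio was -0.28 for the centrosome genes, -0.36 for the kinetochore genes, 0 for the checkpoint genes, -0.01 for the kinases and regulators, and 0.03 for the spindle genes.

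**Figure D5:**
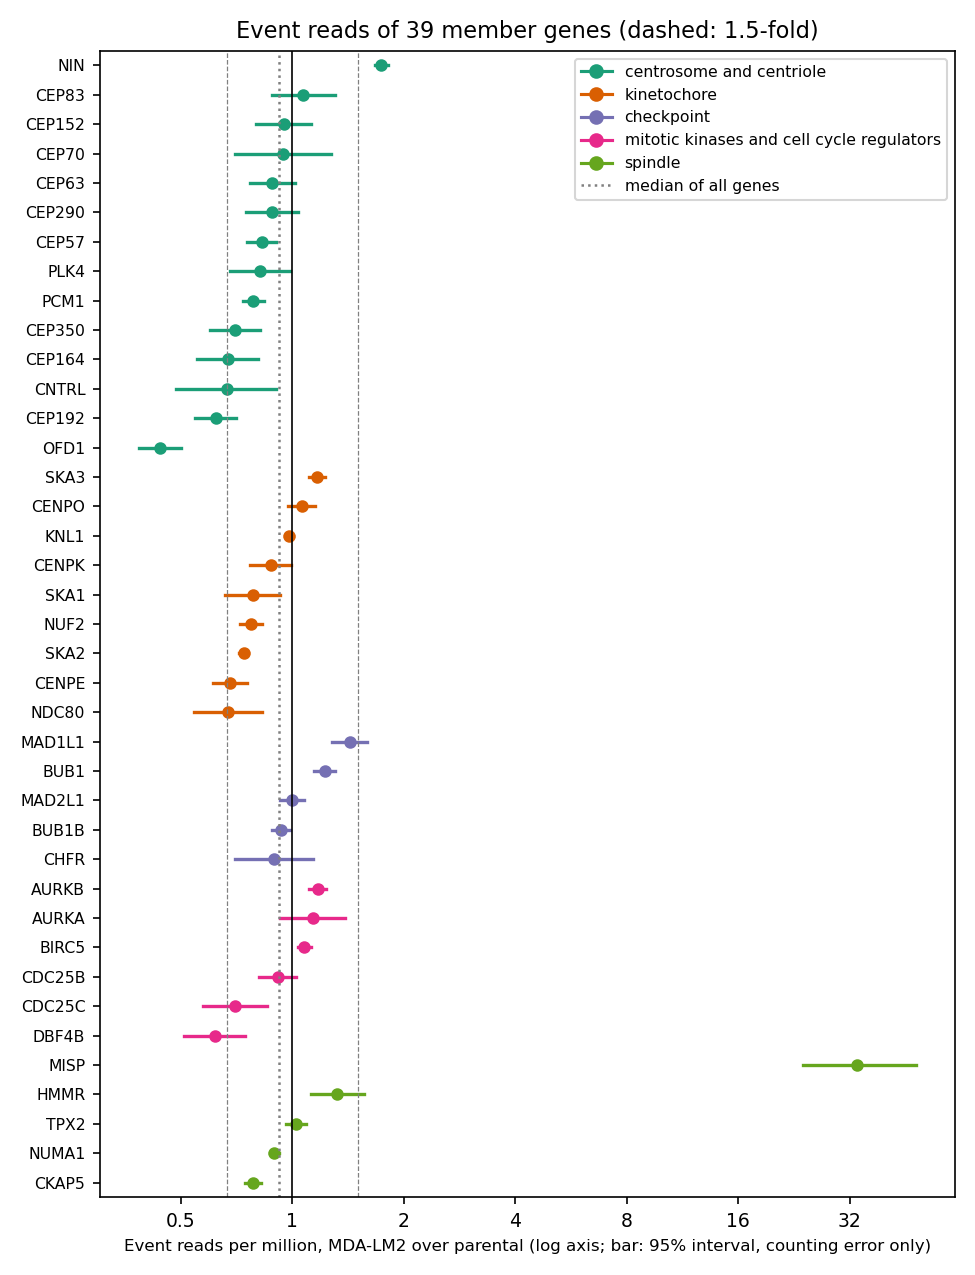
Ratio of event RPM, MDA-LM2 over parental (horizontal log axis), with its exact 95% interval as a bar, for 39 genes grouped by role; dashed lines mark 1.5-fold and the dotted line the median gene. MISP at 33.4 lies far right of all others, and OFD1 at 0.439 farthest left.

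The rest of the pathway was described from 6 lists of 202 further genes, of which 144 had a compared exon. Of their 368 exons 5 were higher and none lower in MDA-LM2, or 1.36%, near the 1.25% of all exons. They were 2 versions of an exon of ARPP19, an inhibitor of the phosphatase PP2A in mitosis, and single exons of MASTL, the kinase that switches ARPP19 on, CCDC14, a centriolar satellite protein, and SMC1A, a cohesin subunit. The 55-nt version of ARPP19 was at 0.97 (0.92 to 0.99) in MDA-LM2 and 0.74 (0.62 to 0.85) in parental cells, and the 114-nt exon of MASTL at 0.47 (0.39 to 0.57) and 0.27 (0.22 to 0.33). The 146-nt exon of SMC1A had 21 inclusion and 5 exclusion reads in MDA-LM2, against 8 and 17 in parental cells, and an adjusted p of 0.057 by Fisher's exact test. That test gave adjusted p-values of 0.78 and 0.81 for the ARPP19 exons and 1 for those of MASTL and CCDC14. From inclusion and exclusion reads alone the MASTL exon was lower in MDA-LM2, at 0.908 against 0.919 in parental cells. None of the further kinetochore, checkpoint or spindle genes had a called exon. In event reads, 154 genes of the 6 lists had a value, of which 6.49% were higher and 13.0% lower by the 1.5-fold rule, against 8.65% and 18.7% of all genes.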

How the data were processed

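RNA of 2 samples per line was sequenced from ScriptSeq v2 libraries and aligned with STAR 2.7 to hg38, per the submitters' processing notes. The deposited tables come from MISO, per the file headers; for its version, settings and read length, and for how samples were pooled, the sources used here say nothing. The authors' tables give the inclusion level as a fraction with an interval, and read counts in 4 classes (inclusion, exclusion, common and neither). The authors' deposited table of the comparison gives the difference, a score equal to the MDA-LM2 minus the parental level, and the Bayes factor, a ratio.

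Exons were assigned to genes of GENCODE release 29, and the event with most informative reads stood for each exon. Event reads used exons inside exactly 1 gene. Gene symbols follow the files of that release. Of the compared member exons, 1 (CHFR, 93 nt) lies inside a second gene on its strand and 1 is overlapped by a gene on the other strand. Named exons were every called one, those of NIN, the 12 with most informative reads at a level of 0.1 to 0.9 in either line with 1 per gene, and the 6 largest differences not called. Genes were named for event reads when past 1.5-fold. The members, lists and rules were chosen with earlier results of these data known. Computation used Python 3.11.15, pandas 2.3.3, numpy 2.4.6 and scipy 1.17.1, and the tests were checked on simulated reads. Alternatives were other thresholds and read minimums, levels from reads alone, other classes of event reads and scaling to the median gene. Intervals cover counting error only, and reads from PCR are not independent molecules.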

Additional observations from a re-analysis of the deposited data

How the results depend on the processing

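With other limits on the difference, the Bayes factor or the reads, with all events, and with intervals that do not overlap, 5 to 8 member exons were higher, against 7, and 1 was lower. Asking also for a read-based difference of at least 0.1 left 3 higher. A difference limit of 0.1 gave 8 higher member exons, and over all exons 1.45% were higher and 0.617% lower by it. For the other limits no share over all exons was computed, so those counts have no background. From inclusion and exclusion reads alone the CHFR differences turned round: -0.0645 for the 180-nt and -0.0727 for the 216-nt version with inclusion reads divided by 2, -0.139 and -0.175 per position at a read length of 50 nt, and -0.0886 and -0.111 at 100 nt. The cause was not tested. The NIN difference was 0.0470, 0.458 and 0.332 in these settings. For event reads, a fold of 2 left 1 gene higher and 1 lower, where 3.35% of all genes were higher and 8.92% lower. Setting the median gene to 1 left 1 lower, where 14.1% of all genes were lower. Inclusion and exclusion reads alone gave 5 higher and 8 lower. Common reads only, scaled to each library's total of common reads, gave 2 higher and 5 lower, an alternative added after seeing the data. The share of all genes was not computed for common reads only or for inclusion and exclusion reads alone, so these counts have no background. With common reads only, the genes were not all the same as by the main rule. The higher ones were MISP and MAD1L1, at 1.569 (1.357 to 1.815), while NIN was at 0.923. The lower ones were OFD1, CEP192, DBF4B, NDC80 and SKA1, while CNTRL, at 0.705, fell short of 1.5-fold. No paired analysis was possible because each line has 1 table with no replicate columns, and leaving out a replicate was not run for the same reason. Exclusion reads numbered fewer than 10 in the libraries together in 43 of the 126 member exons, or 34.1%, against 41.1% of all exons, which limits what their reads can show.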

Other observations

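Beside the compared exons, another version of the CHFR exon, of 57 nt, did not meet the read minimum. It had 20 inclusion and 2 exclusion reads in MDA-LM2, against 8 and 0 in parental cells, and a level of 0.59 (0.37 to 0.79) in MDA-LM2 and 0.23 (0.11 to 0.40) in parental cells. In CEP290, a coding exon of 54 nt had no exclusion reads in either library and was at 0.22 (0.14 to 0.31) in MDA-LM2 and 0.07 (0.04 to 0.11) in parental cells, on 29 and 14 inclusion reads. Both were chosen after their values were seen.

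Levels of at most 0.1 in both libraries were found in 35 of the 126 exons, or 27.8%, against 29.4% of all exons compared, a share near the background. Among them were a 122-nt exon of NDC80 with 109 exclusion reads in MDA-LM2 and 194 in parental cells, and a 122-nt exon of SKA2 with 217 and 287. A further 24 exons, or 19.0%, were at 0.9 or above in both libraries, against 23.3% of all exons, and 67 lay between.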
